A study of Mus musculus with 20 samples.

Results

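The classical cadherins and the catenins that bind them form the core of the adherens junction, and 7 of their genes were followed here: the cadherins Cdh1, Cdh2, Cdh3 and Cdh11 and the catenins Ctnna1, Ctnnb1 and Ctnnd1. They were chosen by name from 24411 genes listed in the deposited table, and all 7 were among the 18807 genes kept by the filter on low values. RNA of the outer eyecup, the retinal pigment epithelium (RPE) with the choroid, was sequenced from C57BL/6 mice (the methods give the Stra6-/- background as C57BL/6J) in 4 groups of 5 libraries. The animals were wild type (WT) or lacked the membrane receptor for retinol uptake in every cell (Stra6-/-). All were raised on a chow rich in vitamin A until weaning at about day 28 and then received for 12 weeks either a vitamin A sufficient diet (VAS, 4 IU/g) or a vitamin A deficient diet (VAD, 0 IU/g). By the methods, both eyecups of a mouse were pooled, after a dispase step to detach the retina.

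Cadherins cross the membrane and bind cadherins of the neighbouring cell, while their tails hold p120-catenin (Ctnnd1), which slows their removal from the surface, and beta-catenin (Ctnnb1), which recruits alpha-catenin (Ctnna1) and through it actin. Beta-catenin also carries Wnt signals into the nucleus. E-cadherin (Cdh1) is the cadherin of most surface epithelia, P-cadherin (Cdh3) is a prominent cadherin of the mouse RPE, N-cadherin (Cdh2) is found in neural and mesenchymal cells and also in RPE, and cadherin-11 (Cdh11) is typical of connective tissue cells.

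The deposited values are gene counts divided by 1 size factor per library and are called normalized values. Between 13331903 and 21878614 reads stood behind each library. Stra6 itself had normalized values of 2414 to 2742 in VAS WT, 564 to 694 in VAS Stra6-/- and 669 to 1529 in VAD WT. It lay between 1973 and 2393 in the group labelled VAD Stra6-/-, above every VAD WT library and so against the label. As a percentage of the summed RPE markers described below, however, Stra6 was 0.396% to 0.491% there and 0.482% to 0.581% in VAS Stra6-/-, under the 2.02% to 2.38% of VAS WT and the 1.96% to 2.78% of VAD WT. Directions drawn from that group below rest on its label. Each of its 5 libraries also held RNA of both Xist (3570 to 4280, a transcript of the inactive X of females) and the Y-linked Ddx3y (741 to 970), whereas VAS WT held Ddx3y with Xist at most 38.4 and VAS Stra6-/- held Xist with Ddx3y at most 1.02, so genotype and sex-linked RNA cannot be told apart on the VAS diet. RNA of 1 mouse would hold only one of these at such levels, so n counts libraries here and need not count single mice. Within VAD WT, replicates 2 and 4 stood apart from replicates 1, 3 and 5, with Xist at 10912 and 11767 against 174 to 234. Ddx3y was 75.2 and 80.5 in this pair, against 1041 to 1133 in replicates 1, 3 and 5. Sex-linked RNA thus differed between the groups in the other comparisons as well. There and in the interaction it was not separated from genotype or diet. Results that involve VAD WT are therefore given with and without replicates 2 and 4.

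Markers of other tissues were present in all groups, and those of surface epithelium and cornea were abundant in 3 of them. The summed normalized value of 14 markers of surface epithelium and cornea, such as the corneal keratin Krt12, was 775938 to 920932 in VAS WT, 475931 to 1307226 in VAD WT and 1055051 to 1095700.1 in VAS Stra6-/-, but 34844 to 44742 in the group labelled VAD Stra6-/-. The sum of 10 RPE markers, such as Rpe65, was 111065 to 127494, 31517 to 56484 and 113473 to 119453 in those first 3 groups and 487207 to 531617 in the last. The sum of 9 markers of fibroblasts, sclera and choroid stroma, such as Dcn, was 43566 to 46155, 49856 to 156273, 43761 to 44935 and 205570.0 to 215443 in the same order. No marker of these 3 lists was at 0 in every library. In bulk tissue, fewer cells of a type and less RNA per cell cannot be told apart, and this holds for every cadherin and catenin value below. The part of these tissues in the results below was not tested.

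E-cadherin separated both Stra6-/- groups from each other and from the WT groups. Normalized Cdh1 values were 4253, 3994, 3775, 4069 and 3742 in VAS WT replicates 1 to 5. In VAD WT they were 4357, 2533, 3574, 2455 and 4024. They were 6327, 6328, 6831, 6361 and 6601 in VAS Stra6-/-. The group labelled VAD Stra6-/- had 1066, 997, 1166, 1275 and 1101, and none of these libraries reached the lowest library of any other group, while all VAS Stra6-/- libraries lay above all others. Replicates 2 and 4 were the low pair of VAD WT.

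P-cadherin was highest where E-cadherin was lowest. Its normalized values were 693, 629, 574, 539 and 619 in VAS WT and 141, 313, 136, 387 and 213 in VAD WT. VAS Stra6-/- had 734, 734, 673, 825 and 683. The group labelled VAD Stra6-/- had 2108, 2126, 2249.8, 2095 and 2813. VAD WT was the group with the least Cdh3, and every library labelled VAD Stra6-/- held more Cdh3 than any of the other 15.

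N-cadherin was even across the VAS groups, with 466, 447, 520.4, 485 and 453 in VAS WT and 489.6, 472, 501, 465 and 459 in VAS Stra6-/-. In VAD WT it was 292, 723, 247, 623 and 261, so that replicates 2 and 4 exceeded and the other replicates fell short of both VAS groups. The group labelled VAD Stra6-/- had 743, 918, 885, 949 and 1032, above every other library. Cadherin-11 showed the same split within VAD WT, with 388, 1195, 377, 1251 and 441. It was 558, 579, 628, 536 and 456 in VAS WT and 506, 429, 538, 357 and 442 in VAS Stra6-/-, which overlapped. It reached 2092, 2149, 2177, 2309 and 1825 in the group labelled VAD Stra6-/-, again above every other library.

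**Figure D1:**
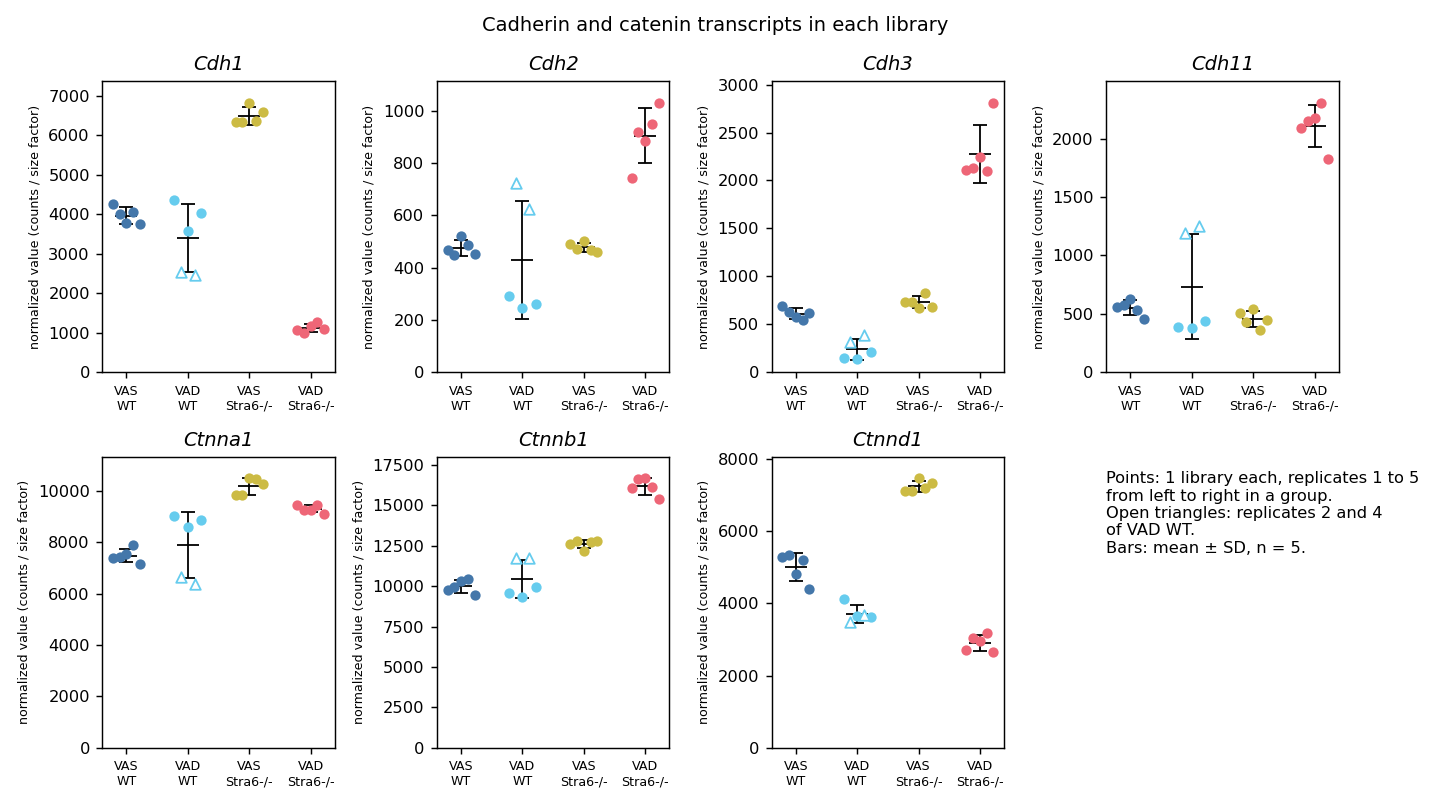
Normalized values (gene counts divided by the size factor of the library, linear axes from 0) of the 7 genes in each library by group. Points are single libraries, open triangles are VAD WT replicates 2 and 4, and bars give the mean ± SD (n = 5). Cdh1 was lowest, and Cdh2, Cdh3, Cdh11 and Ctnnb1 were highest, in the group labelled VAD Stra6-/-.

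Among the catenins, alpha-catenin had the narrowest range. Ctnna1 had normalized values of 7374, 7424, 7533, 7886 and 7171 in VAS WT and 9841, 9824, 10493, 10479 and 10287 in VAS Stra6-/-. In VAD WT it was 9007, 6655, 8598, 6361 and 8866, with replicates 2 and 4 below and the others above all VAS WT libraries. The group labelled VAD Stra6-/- had 9462, 9267, 9271, 9436 and 9113, between the VAD WT and VAS Stra6-/- ranges.

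Beta-catenin was highest in the group labelled VAD Stra6-/-. Ctnnb1 values were 9779, 9962, 10316, 10468 and 9428 in VAS WT, and 9576, 11730.3, 9320.4, 11729 and 9975 in VAD WT. VAS Stra6-/- had 12624, 12802, 12179, 12734 and 12795. The group labelled VAD Stra6-/- had 16103, 16670.2, 16683, 16116 and 15405, so that the 2 Stra6-/- groups did not overlap each other or either WT group.

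p120-catenin followed E-cadherin in its order of group means, although the WT groups overlapped in Cdh1. Without VAD WT replicates 2 and 4, the log2 fold change of VAD WT against VAS WT was 0.00 for Cdh1 and -0.40 for Ctnnd1. Ctnnd1 values were 5283, 5331, 4828, 5194 and 4410.5 in VAS WT and 4112, 3491, 3645, 3668 and 3615 in VAD WT. They were 7107, 7116, 7467, 7185 and 7341 in VAS Stra6-/-. The group labelled VAD Stra6-/- had 2720.3, 3047, 2947, 3169 and 2641, and none of the 4 groups overlapped. In contrast to the cadherins, replicates 2 and 4 of VAD WT did not leave the other VAD WT libraries in this gene.

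The first comparison asked what loss of Stra6 does when vitamin A is supplied. In VAS Stra6-/- against VAS WT, 4 of the 7 genes rose and none fell at an adjusted p under 0.05 (limma on log2(value + 1), with Benjamini-Hochberg adjustment over all 18807 genes), against 26.6% of all genes called, 15.9% upward. No member passed with a log2 fold change beyond 2, as 1.1% of all genes did. The genes called were Cdh1 with a log2 fold change of 0.71 (SE 0.12, adjusted p = 1.70e-04, limma), Ctnnd1 with 0.54 (SE 0.07, adjusted p = 4.68e-06), Ctnna1 with 0.45 (SE 0.09, adjusted p = 5.25e-04) and Ctnnb1 with 0.34 (SE 0.07, adjusted p = 0.00159). For the same 4 genes the 2 groups did not overlap, against 32.5% of all genes. E-cadherin RNA was thus 1.64-fold, and the 3 catenins were 1.26-fold to 1.45-fold, their levels in VAS WT. The other cadherins did not pass, with log2 fold changes of 0.01 for Cdh2 (adjusted p = 0.987, limma), 0.26 for Cdh3 (adjusted p = 0.399) and -0.28 for Cdh11 (adjusted p = 0.479). At the same fold changes Cdh11 passed downward without VAD WT replicates 2 and 4 in the fit (adjusted p = 0.0291, limma), as did 17.5% of all genes, and Cdh3 passed upward with only the compared groups in it (adjusted p = 0.0191, limma). The median over the 7 genes was 0.34, beside 0.02 over all genes tested. The median over surface epithelium markers was 0.39 in this comparison, with 3 of 14 higher and 3 lower (10 and 3 without VAD WT replicates 2 and 4, which share the fit), and their summed value did not overlap between the groups. RPE markers had a median of -0.05, with none of 10 higher and 4 lower.

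The second comparison set the genotypes side by side on the deficient diet. All 7 genes differed from VAD WT in the group labelled VAD Stra6-/-, where 55.9% of all genes were called. Of the 7, 5 were higher, against 26.2% of all genes, and 2 were lower, against 29.6%. Only Cdh3 passed with a log2 fold change beyond 2, as did 10.4% of all genes. Cdh3 showed the largest difference of the 7, a log2 fold change of 3.37 (SE 0.21, adjusted p = 9.86e-12, limma), which is 10.3-fold. Cdh11 was higher by 1.75 (SE 0.27, adjusted p = 8.85e-06, limma) and Cdh2 by 1.22 (SE 0.22, adjusted p = 6.87e-05, limma) on the log2 scale. Cdh1 fell by 1.56 (SE 0.12, adjusted p = 6.04e-10, limma), to 0.339 of its level in VAD WT. The catenins changed less: Ctnnb1 had a log2 fold change of 0.64 (adjusted p = 2.18e-07, limma), Ctnna1 of 0.25 (adjusted p = 0.0164) and Ctnnd1 of -0.35 (adjusted p = 1.37e-04). For none of the 7 genes did the groups overlap, against 37.4% of all genes.

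Without replicates 2 and 4 of VAD WT the cadherin differences were larger, with log2 fold changes of 3.81 for Cdh3, 2.39 for Cdh11, 1.75 for Cdh2 and -1.83 for Cdh1. Ctnnb1 then had 0.75 and Ctnnd1 -0.38. Ctnna1 no longer passed, at 0.08 (adjusted p = 0.0827, limma). With all libraries, 9 of 10 RPE markers and 8 of 9 stroma markers were higher in this comparison, with median log2 fold changes of 3.30 and 1.23. Of the surface epithelium markers 14 of 14 were then lower, with a median of -4.17. Without the pair, 9 of 10 RPE and 9 of 9 stroma markers were higher and 14 of 14 surface epithelium markers lower.

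The third comparison was of the diets in WT mice. Of the 7 genes, 2 fell in VAD WT against VAS WT and none rose, where 8.78% of all genes were called, 5.5% downward and 3.29% upward. None passed with a log2 fold change beyond 2, as 0.409% of all genes did. Cdh3 fell by 1.47 on the log2 scale (SE 0.21, adjusted p = 5.91e-05, limma), to 0.360 of its VAS WT level, and Ctnnd1 fell by 0.43 (SE 0.07, adjusted p = 2.11e-04, limma). These were also the genes whose groups did not overlap, against 6.34% of all genes. Cdh1 had a log2 fold change of -0.26 (SE 0.12, adjusted p = 0.211, limma), Cdh2 of -0.30, Cdh11 of 0.19, and Ctnna1 and Ctnnb1 of 0.06 each, none of which passed. With values rescaled to 1 total per library Cdh1 did pass, at -0.32 (adjusted p = 0.0385, limma).

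Which genes were called here rested on the pair of VAD WT libraries that stood apart. Without them 5 genes passed, where 37.9% of all genes were called, 17.6% upward and 20.3% downward. Cdh3 was lower by more, with a log2 fold change of -1.92 (SE 0.13, adjusted p = 1.97e-10, limma), and Ctnnd1 was at -0.40 (SE 0.07, adjusted p = 5.59e-05, limma), close to its value with all libraries. Cdh2 now fell, with -0.83 (adjusted p = 3.89e-07, limma), as did Cdh11, with -0.45 (adjusted p = 0.00418), and Ctnna1 rose, with 0.24 (adjusted p = 4.01e-05). Cdh1 was at 0.00 (SE 0.07, adjusted p = 0.993, limma). Of the RPE markers 9 of 10 were lower in VAD WT than in VAS WT, with or without the pair. Their median log2 fold change was -1.27 with all libraries. Stroma markers summed to 152493 and 156273 in replicates 2 and 4, against 49856 to 51801 in replicates 1, 3 and 5, and surface epithelium markers to 481011 and 475931 against 1271194 to 1307226.

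In the group labelled VAD Stra6-/- against VAS Stra6-/-, 6 of the 7 genes differed, where 53.2% of all genes were called. Higher were 4 of the 7, against 24.4% of all genes, and lower were 2, against 28.8%. Cdh1 and Cdh11 passed with a log2 fold change beyond 2, as did 9.08% of all genes. Cdh1 fell by 2.54 on the log2 scale (SE 0.12, adjusted p = 2.05e-13, limma) and Ctnnd1 fell to 0.400 of its VAS Stra6-/- level (adjusted p = 4.99e-13, limma). Cdh11 was higher by 2.22 (SE 0.27, adjusted p = 3.35e-07, limma), Cdh3 by 1.64 (SE 0.21, adjusted p = 6.98e-07), Cdh2 by 0.91 (SE 0.22, adjusted p = 0.00136) and Ctnnb1 by 0.36 (SE 0.07, adjusted p = 2.98e-04). Ctnna1 had -0.13 (adjusted p = 0.222, limma) although its groups did not overlap, as was so for all 7 genes and for 51.3% of all genes. When replicates 2 and 4 of VAD WT were left out of the shared fit, the smaller spread brought Ctnna1 past the threshold at the same fold change (adjusted p = 0.00185, limma). This comparison and that of the genotypes on the VAD diet share the group labelled VAD Stra6-/-. Surface epithelium markers were lower in 14 of 14 cases with a median of -4.94, and RPE and stroma markers were higher in 9 of 10 and 9 of 9 cases with medians of 2.22 and 1.58.

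**Figure D2:**
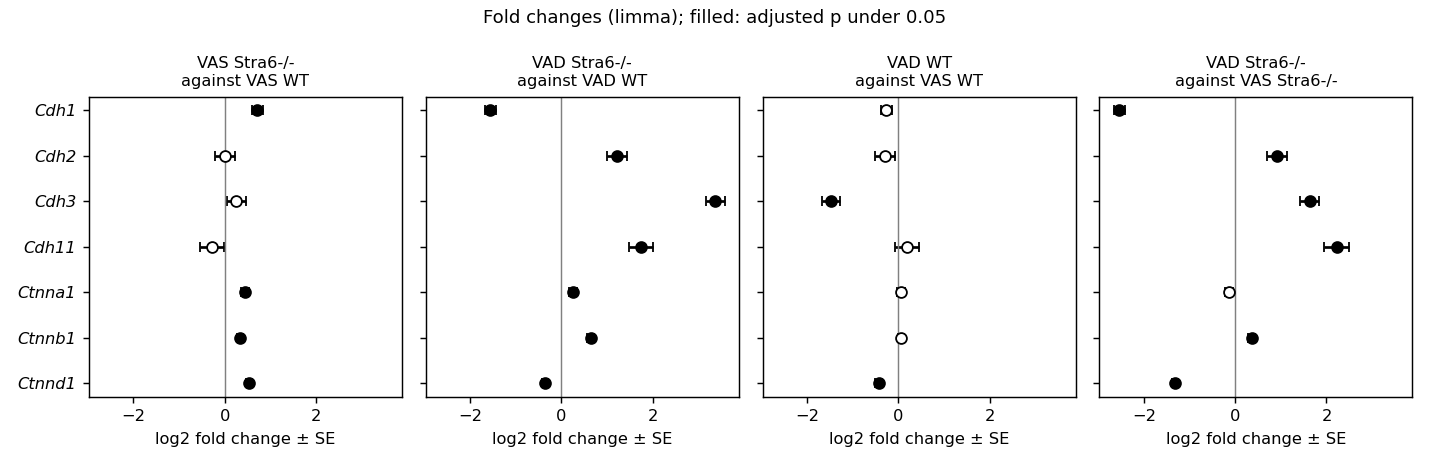
Log2 fold changes ± SE of the 7 genes in 4 comparisons (limma on log2(value + 1), 5 libraries per group); filled points passed an adjusted p of 0.05. The largest upward change of a catenin was 0.64, and Cdh3 reached 3.37 in the comparison of the genotypes on the VAD diet.

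Whether the genotype difference depended on the diet was tested with an interaction term, for which 44.2% of all genes were called, 19.5% upward and 24.8% downward. Beyond 2 on the log2 scale were 3 of the 7 genes and 10.4% of all genes. The test passed for 6 of the 7 genes, as a difference of log2 fold changes (VAD minus VAS) of 3.11 for Cdh3 (adjusted p = 1.61e-08, limma), 2.03 for Cdh11 (adjusted p = 1.38e-04), 1.21 for Cdh2 (adjusted p = 0.00312), 0.30 for Ctnnb1 (adjusted p = 0.0247), -0.89 for Ctnnd1 (adjusted p = 1.28e-07) and -2.27 for Cdh1 (adjusted p = 7.84e-10). Cdh1 and Ctnnd1 were thus higher in Stra6-/- libraries on the VAS diet and lower in those labelled so on the VAD diet. Ctnna1 did not pass, with -0.19 (adjusted p = 0.217, limma), but did without VAD WT replicates 2 and 4, with -0.37 (adjusted p = 2.19e-06, limma). All 7 genes passed without that pair, where 54.7% of all genes were called, 25.7% upward and 29.0% downward. The differences were then 3.55 for Cdh3, 2.67 for Cdh11, 1.74 for Cdh2, 0.41 for Ctnnb1, -0.92 for Ctnnd1 and -2.54 for Cdh1.

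To compare the cadherins with each other, normalized values were divided by transcript length, as normalized values per kb of exon sequence. Of the summed level of the 4 cadherins, Cdh1 then held 72.9% ± 1.21 in VAS WT and 81.0% ± 0.769 in VAS Stra6-/- (SD, n = 5 each). The same share was 19.04% ± 1.496 (SD, n = 5) in the group labelled VAD Stra6-/-, where Cdh3 made up 39.0% ± 3.72, Cdh11 28.2% ± 3.10 and Cdh2 13.7% ± 1.06. Per kb, the leading cadherin transcript was E-cadherin in each of the other 15 libraries and P-cadherin in each of these 5. Without division by length, Cdh11 exceeded Cdh3 in replicates 2 and 4 of that group. In VAS WT, Cdh3, Cdh11 and Cdh2 followed at 11.3% ± 0.916, 7.95% ± 0.875 and 7.81% ± 0.631, and the last pair did not differ beyond its spread.

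VAD WT was not uniform in this composition. The Cdh1 share averaged 73.4% ± 15.4 (SD, n = 5), with a median of 83.5% and a lowest library of 56.0%. Cdh11 ranged from 6.01% to 22.4% and Cdh2 from 4.85% to 14.6%, the upper ends being replicates 2 and 4. Cdh3 ranged from 2.82% to 8.92%, also with replicates 2 and 4 as its upper end, at 7.14% and 8.92%. All 5 lay below the lowest VAS WT library at 9.97%. The summed level of the 4 cadherins moved less than its composition, with 1228 ± 56.4 normalized values per kb in VAS WT, 1035 ± 77.9 in VAD WT, 1808 ± 50.2 in VAS Stra6-/- and 1329 ± 71.7 in the group labelled VAD Stra6-/- (SD, n = 5 each). Per kb, the log2 ratio of Cdh1 to Cdh2 was 3.23 ± 0.13 in VAS WT and 0.47 ± 0.19 in the group labelled VAD Stra6-/-. That of Cdh1 to Cdh3 was 2.69 ± 0.13 and -1.03 ± 0.23 in the same groups (SD, n = 5).

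**Figure D3:**
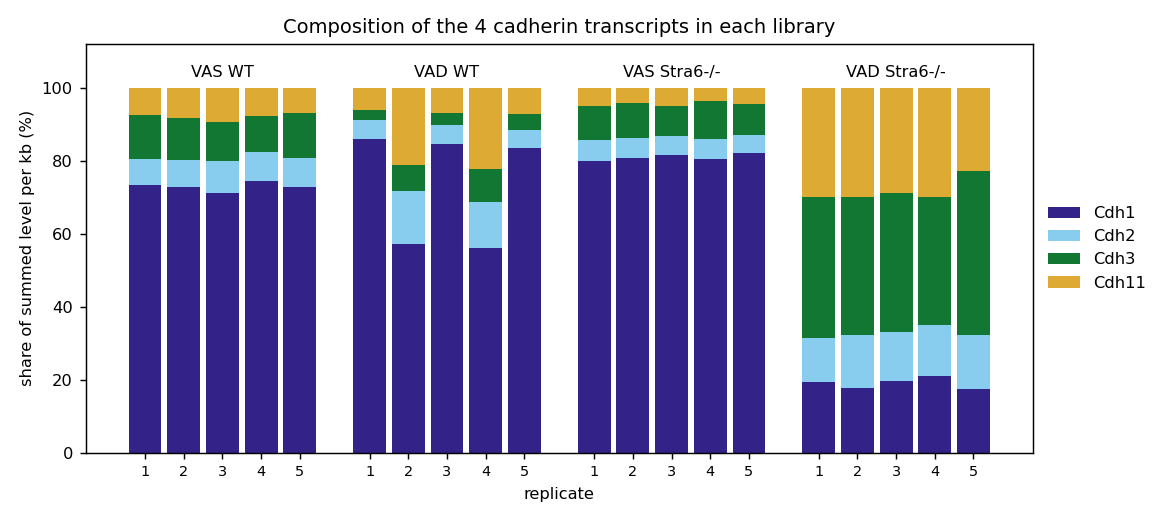
Share (%) of Cdh1, Cdh2, Cdh3 and Cdh11 in the sum of their normalized values per kb, 1 bar per library. Cdh1 held 56.0% to 86.0% in the VAD WT libraries, with replicates 2 and 4 lowest, and 17.5% to 21.1% in those labelled VAD Stra6-/-, where Cdh3 led.

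Ctnnb1 and Ctnna1 each exceeded the sum of the 4 cadherins per kb in every group mean, and Ctnnd1 did not. Per kb, Ctnnb1 averaged 2758 ± 115 in VAS WT, 2889 ± 325 in VAD WT, 3485 ± 71.9 in VAS Stra6-/- and 4470 ± 145 in the group labelled VAD Stra6-/- (SD, n = 5 each). Ctnna1 came next in all 4 groups, from 2003 ± 70.5 in VAS WT to 2728 ± 88.9 in VAS Stra6-/-. Its range overlapped that of Ctnnb1 in no group. Ctnnd1 was the least abundant catenin in each group and averaged 1126 in VAS Stra6-/- and 452 in the group labelled VAD Stra6-/-. All lengths are those of the merged exons of each gene, and a group that uses shorter transcripts would be set too low.

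Cdh1, Cdh3 and Cdh11 lie on chromosome 8 (GRCm38). Cdh3 spans 106510891 to 106557297 and Cdh1 spans 106603351 to 106670246 on the plus strand, with 46053 bases between them, and these neighbours moved in opposite directions in the comparisons with the group labelled VAD Stra6-/-. Cdh11 spans 102632095 to 102785642 on the minus strand. Cdh2 (16588877 to 16809246, minus strand) and Ctnna1 (35118859 to 35254779, plus strand) lie on chromosome 18, Ctnnb1 on chromosome 9 (120929216 to 120960507, plus strand) and Ctnnd1 on chromosome 2 (84600071 to 84650765, minus strand). The kinase gene Ulk4, on the other strand, shares 759 exonic bases with Ctnnb1, but its highest normalized value was 122. An annotated gene on the same strand, Gm28635, holds 69.7% of the exonic bases of Ctnnd1 and has no value here, so reads of the pair cannot be told apart.

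For each of the 7, the genes with the most similar profile were found as those with the smallest root mean square (RMS) difference in log2(value + 1), centred per gene, over the 20 libraries among 12298 genes with a mean of at least 100. Nearest to Cdh3 were Ttr, which encodes the thyroxine and retinol transport protein transthyretin, with an RMS difference of 0.21, then Lyz2 and Tmem98. Nearest to Cdh11 were Mxra8, Igfbp6 and Ptgis (RMS 0.18 to 0.23), and nearest to Cdh2 were Ndrg2, Pja2 and Calm3 (0.14 to 0.15). Fam129b, Cast and Mxd1 were nearest to Cdh1 (0.14 to 0.17), and Piezo1, Pcyt1a and Arhgap32 to Ctnnd1 (0.10 to 0.13). For Ctnna1 they were Yap1, Stip1 and Rab1, and for Ctnnb1 Sar1a, Scamp1 and Bcl2l1. Among the 7 themselves, Cdh1 lay closer to Ctnnd1 (RMS 0.53) than to any other cadherin (1.42 to 1.96), and Cdh2 lay closest to Ctnnb1 (0.37) and then to Cdh11 (0.53). All libraries are shared between these profiles, which are dominated by the group labelled VAD Stra6-/-.

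**Figure D4:**
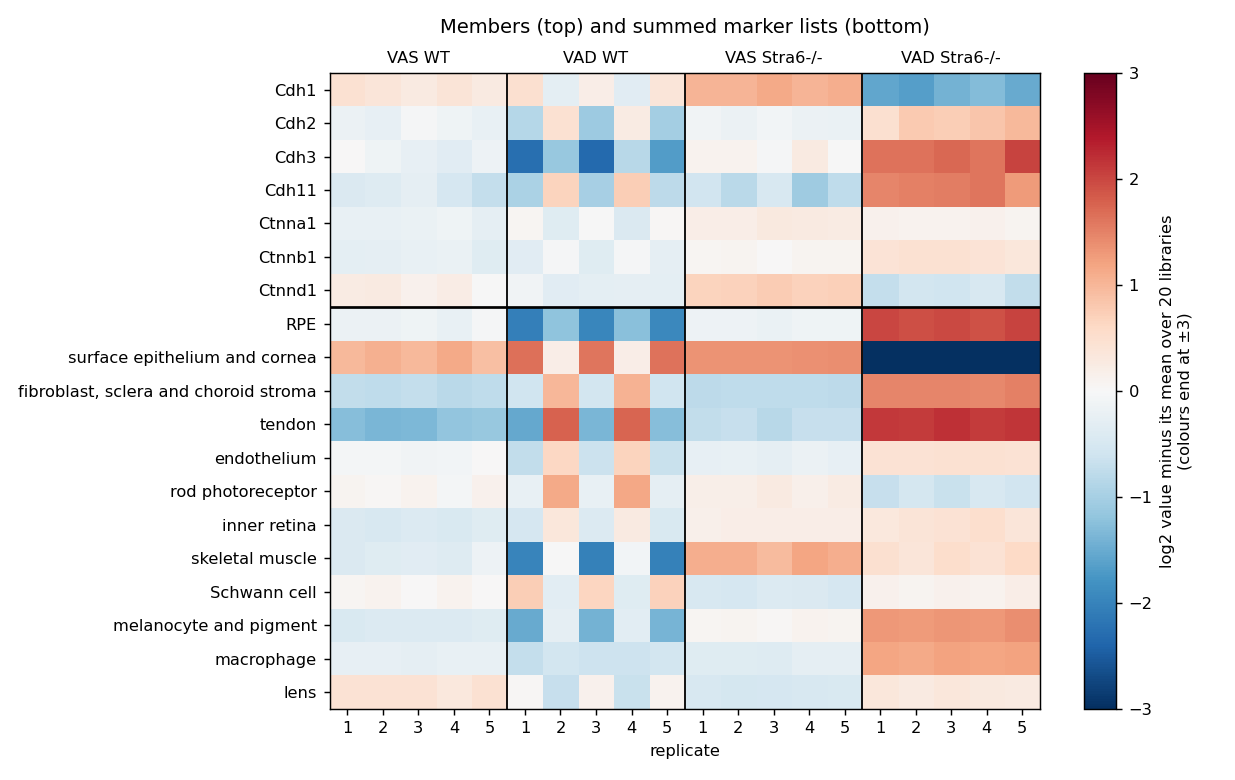
Log2(value + 1) of the 7 genes (top) and of the summed values of 12 marker lists (bottom) in each library, minus the mean over 20 libraries; red is above and blue below that mean. Within VAD WT, replicates 2 and 4 are the high pair for Cdh2, Cdh3, Cdh11 and Ctnnb1 and the low pair for Cdh1 and Ctnna1. Among the lists they are the high pair for RPE, stroma, tendon, endothelium, rod, inner retina, muscle and pigment. They are the low pair for the surface epithelium, Schwann cell and lens lists.

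List counts from here on stand beside the shares of all genes called higher and lower. These shares were 15.9% and 10.8% on the VAS diet and 26.2% and 29.6% between the genotypes on the VAD diet. Between the diets they were 3.29% and 5.5% in WT and 24.4% and 28.8% in Stra6-/-. No list was tested against them. Of 14 other type I and type II cadherins, few were abundant. Against VAD WT, 4 were higher and 1 was lower in the group labelled VAD Stra6-/-, with a median log2 fold change of 0.22 beside -0.05 over all genes. Cdh10 (2.48, adjusted p = 0.00394, limma), Cdh9 (2.20, adjusted p = 9.40e-06) and Cdh19 (1.69, adjusted p = 1.39e-05) led, with means of 65.0, 100.6 and 290 (normalized values) in that group. Cdh7 averaged 10.9 in VAD WT and 0.951 there. On the VAS diet 1 was higher in Stra6-/- (Cdh6, with means of 10.7 against 1.93) and 1 lower (Cdh20, -0.63). In VAD WT against VAS WT, Cdh9, Cdh19 and Cdh22 were lower, by 1.12, 0.99 and 1.05 on the log2 scale, and none was higher. Between the diets in Stra6-/-, 2 were higher and 1 lower. With all libraries, the endothelial VE-cadherin, Cdh5, passed in none of these. Its means were 632, 736, 821 and 741 in VAS WT, VAD WT, VAS Stra6-/- and the group labelled VAD Stra6-/-, with an SD of 509 in VAD WT. Without VAD WT replicates 2 and 4, all 8 markers of an endothelial list that holds Cdh5 were called between the genotypes on the VAD diet. Of these, 7 were higher and 1 was lower. Cdh5 was named after its values were seen.

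Among 7 further catenins and armadillo proteins, Jup encodes plakoglobin, the beta-catenin relative that also serves desmosomes. Its mean normalized value was 12411 in VAS WT, 13100.2 in VAD WT, 21161 in VAS Stra6-/- and 1536 in the group labelled VAD Stra6-/-. It rose in VAS Stra6-/- against VAS WT by 0.77 (SE 0.17, adjusted p = 0.00156, limma) and its log2 fold change was -3.02 (SE 0.17, adjusted p = 2.00e-12, limma) between the genotypes on the VAD diet and -3.79 between the diets in Stra6-/-. Beta-catenin and plakoglobin RNA thus moved in the same direction on the VAS diet and in opposite directions on the VAD diet. Alpha-catulin (Ctnnal1) had 1.33 between the genotypes on the VAD diet (adjusted p = 4.61e-13, limma). Pkp4 and Arvcf, both of the p120 family, were at 0.61 and -0.63 there. In all, 2 of the 7 were higher and 2 lower in that comparison, 2 and 1 on the VAS diet, none and 1 between the diets in WT, and 2 and 1 between the diets in Stra6-/-.

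The partners of the junction include nectins, which form their own adhesions beside cadherins, and proteins that tie catenins to actin. Of 19 tested, 11 were higher and 2 lower in VAS Stra6-/- than in VAS WT, with a median log2 fold change of 0.42. Ezrin (Ezr, 0.88), Iqgap1 (0.73) and Lima1 (0.66) led, with adjusted p values from 5.43e-07 to 2.22e-06 (limma), while Nectin3 (-0.95) and Wtip (-0.43) were lower. Between the genotypes on the VAD diet, 8 were higher and 8 lower. Nectin4 had a log2 fold change of -3.90 (SE 0.16, adjusted p = 2.06e-14, limma) and Nectin3 of 1.56 (SE 0.12, adjusted p = 2.59e-10, limma), so that these nectins differed in opposite directions. Of the actin cross-linkers, Actn1 was higher (1.14) and Actn4 lower (-1.72), and the LIM protein Ajuba was lower (-1.74). In WT, VAD against VAS, 1 partner was higher and 3 were lower, among them vinculin (Vcl, -0.45). Between the diets in Stra6-/-, 3 were higher and 11 lower, with a median of -0.42.

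Ctnnb1 RNA was compared with the genes that control beta-catenin protein and with its transcriptional targets. Of 12 destruction complex genes and regulators, 4 were higher and 1 lower in VAS Stra6-/- than in VAS WT, led by the kinases Gsk3b (0.68) and Csnk1a1 (0.65) and the scaffold Axin1 (0.61), while the ubiquitin ligase subunit Btrc was lower (-0.49). On the VAD diet, 3 were higher, with Tcf7 at 1.31, and 4 lower, with Tcf7l1 at -0.66, beside 26.2% and 29.6% of all genes. Between the diets 1 was lower in WT (Bcl9, -0.53), and in Stra6-/- 1 was higher and 8 were lower, with Bcl9 at -1.10 and Apc at -1.09.

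Of 10 target genes of beta-catenin, 3 were higher and 2 lower in VAS Stra6-/- than in VAS WT. Myc was higher by 1.43 (SE 0.12, adjusted p = 4.31e-08, limma), with means of 281 and 753, and Ccnd1 by 0.99 (SE 0.10, adjusted p = 1.79e-07, limma), whereas the Wnt feedback inhibitors Notum and Nkd1 were lower, at -1.06 and -0.61. On the VAD diet, where Ctnnb1 was higher in the group labelled VAD Stra6-/-, no target was higher and 4 were lower, among them Nkd1 (-0.91), Myc (-0.69) and Rnf43 (-0.44). Of all genes, 26.2% were higher and 29.6% lower there. Only Nkd1 was called between the diets in WT, with 0.49. In Stra6-/-, 1 was higher between the diets (Notum, 0.91) and 4 were lower, with Myc at -1.94.

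**Figure D5:**
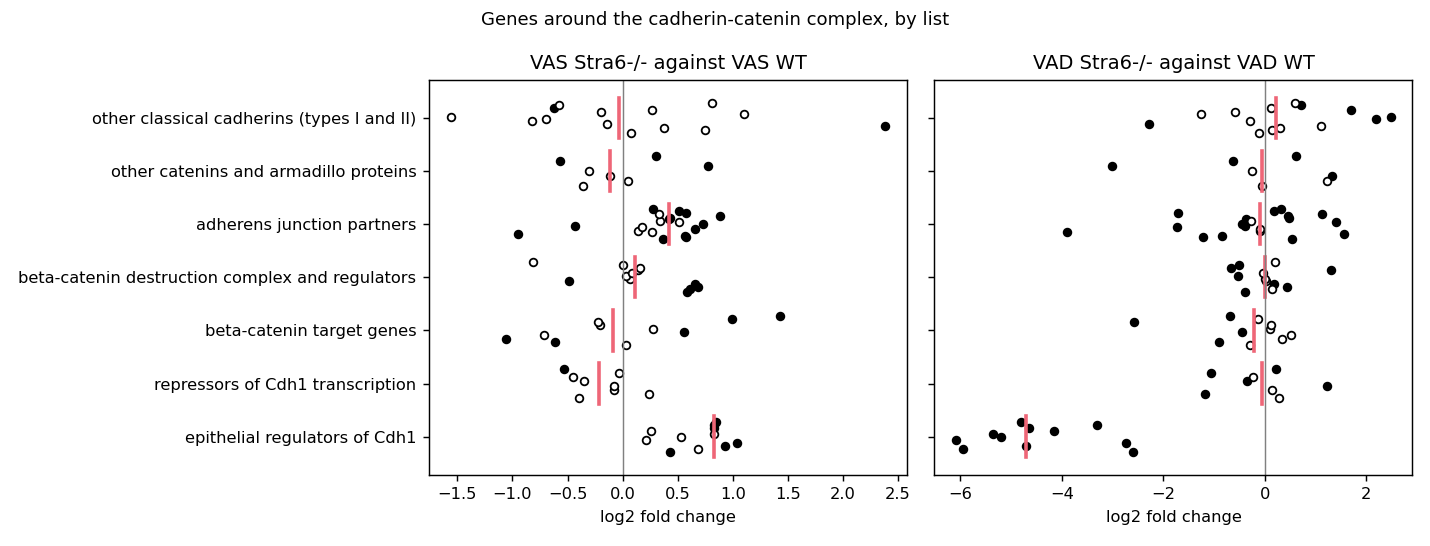
Log2 fold changes (limma) of the tested genes of 7 lists around the cadherin-catenin complex, on the VAS diet (left) and the VAD diet (right); the horizontal scales differ. Filled points passed an adjusted p of 0.05 and red bars are list medians. The epithelial regulators had medians of 0.83 on the left and -4.71 on the right.

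Transcription of Cdh1 is repressed by zinc finger and basic helix-loop-helix factors such as the Snail, Zeb and Twist families and is maintained in epithelia by factors such as grainyhead-like proteins. Of 8 repressor genes, 2 were higher and 3 lower in the group labelled VAD Stra6-/- than in VAD WT, beside 26.2% and 29.6% of all genes. Zeb2 was higher by 1.23 (SE 0.22, adjusted p = 7.31e-05, limma) with a mean of 976 against 462, and Snai2 was lower, at -1.17 (SE 0.22, adjusted p = 8.86e-05, limma). Tcf3 was at -1.06 and Twist1 at -0.35. On the VAS diet none was higher and 1, Tcf4 (-0.53), was lower. In VAD WT against VAS WT, 2 were higher, Twist2 (1.16) and Twist1 (0.80), and between the diets in Stra6-/- 5 were higher and 2 lower.

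The 11 regulators of the epithelial state share 2 genes, Trp63 and Elf3, with the surface epithelium markers. In VAS Stra6-/- against VAS WT 6 were higher and none lower, led by Ovol1 (1.03), Grhl3 (0.93) and Trp63 (0.85), with a median of 0.83. On the VAD diet all 11 were lower in the group labelled VAD Stra6-/-, with a median of -4.71, and between the diets in Stra6-/- all 11 were lower with a median of -5.52. Grhl2, a grainyhead-like factor, averaged 607.5 in VAD WT and 9.20 in the group labelled VAD Stra6-/-, and Esrp2, an epithelial splicing regulator, 999 and 32.9. Ovol2 averaged 145 and 1.40. None was called between the diets in WT. Cdh1 was lower by less than these genes, and its lowest library in that group still held 997 normalized values, where Krt12 averaged 2851 against 279050.1 in VAD WT.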

How the data were processed

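RNA-seq values of 20 outer eyecup libraries, 4 groups of 5, were analysed. Per the submitters' processing notes and the study's methods, the authors aligned reads with STAR 2.5.3a to GRCm38/mm10, used RSEM 1.2.30 for gene counts and normalized these with DESeq2 1.32.0. The values deposited are a signal, each gene count being divided by 1 size factor per library, with neither length nor log scaling. In every library 100% of values came out as whole reads (tolerance 0.01). VAD Stra6-/- (as labelled) replicate 1, with a size factor of 0.993, had not been marked as recovered beforehand. It therefore entered limma only, and the count tests used the other 19. Depth was 13331903 to 21878614 reads, with a median of 17785927, and the 7 genes held 96 to 18481 reads per library.

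A count test had been planned in case the files held counts. Because they hold normalized values, limma 3.58.1 (R 4.3.3) was fitted on log2(value + 1) with group means, an intensity trend and all 20 libraries, over 18807 genes with at least 5 reads in total, and calls were made at a Benjamini-Hochberg adjusted p under 0.05. The added 1 understates fold changes of low genes. The members and lists were chosen with earlier results of these data known, and lists are described by counts and medians only. Values were named for the 7 members, Stra6, Xist, Ddx3y and, per list and comparison, up to 3 called genes per direction with the largest change and a mean of at least 10; exceptions are marked. Nectin1, Nectin3, Nectin4 and Afdn were matched through RefSeq synonyms; Nectin2 was not used. Positions and merged exon lengths came from GENCODE vM21. Of the 7 genes, 2 (Ctnnb1, Ctnnd1) matched the RefSeq promoter windows of 300 bases (GRCm38.p6); none of their 4 windows holds the E-box CAGGTG on either strand, which 6640 of 32851 windows (20.2%) hold. Cdh1, Cdh2, Cdh3, Cdh11 and Ctnna1 were not matched.

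No pair of libraries of a group differed by as little as sampling noise (chi-square per gene 3.39 to 202, where 1 is sampling noise). Replicate numbers did not pair the libraries: deviations from the group means of same-numbered libraries correlated from -0.13 to 0.09 across genes. Mice are the replicates by the study's account, the labels do not name them, and the sex-linked RNA of some libraries does not match 1 mouse each. The p-values therefore measure the spread between libraries. Alternatives were edgeR 4.0.16 and DESeq2 1.42.0 on the recovered reads, pseudocounts of 0.5 and 4, rescaled values, other filters, only the compared groups, a replicate block, fold thresholds and left-out libraries. The tests were tested on simulated data.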

Additional observations from a re-analysis of the deposited data

Results flagged for a closer look

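For 3 of the 28 sets of 5 libraries (7 genes in 4 groups), 1 library lay apart from the others, measured as its gap to the nearest library divided by the range of the group, with 0.71 as the limit; chance gives about 1 in 20 such sets. Cdh3 in the libraries labelled VAD Stra6-/- had a ratio of 0.785, from replicate 5 at 2813. Ctnnb1 in VAS Stra6-/- had 0.7135, from replicate 3 at 12179, the lowest. Ctnnd1 in VAD WT had 0.714, from replicate 1 at 4112, the highest.

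For 6 genes the difference between genotypes itself differed between the diets in limma's interaction test. The differences of log2 fold changes (VAD minus VAS) were -2.27 for Cdh1, 1.21 for Cdh2, 3.11 for Cdh3, 2.03 for Cdh11, 0.30 for Ctnnb1 and -0.89 for Ctnnd1, beside a median of -0.09 over all genes tested. The VAD side of each rests on the libraries in which the Stra6 value, though not its ratio to RPE markers, went against the label.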

How the results depend on the processing

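Of 798 log2 fold changes of the 7 genes computed under alternatives, 774 kept their direction and side of the threshold, 9 came to pass it, 4 no longer passed and 11 changed sign. Cdh2 in VAS Stra6-/- against VAS WT, near 0 throughout, turned to -0.0152 with edgeR, -0.0138 with TMM-rescaled values and -0.10 with values rescaled to 1 total, and ranged from -0.0103 to 0.0445 without each library in turn, below 0 without VAS WT replicate 2 or 5 or VAS Stra6-/- replicate 3. In VAD WT against VAS WT, leaving out replicates 2 and 4 of VAD WT gave 0.00367 for Cdh1, -0.45 for Cdh11 and -0.0535 for Ctnnb1. Without each library in turn Cdh11 ranged from -0.0569 to 0.375 there, below 0 without VAD WT replicate 2 or 4. Calls lost were Ctnnb1 in VAS Stra6-/- against VAS WT with values rescaled to 1 total (0.22, adjusted p = 0.0957, limma) and, between the genotypes on the VAD diet, Ctnna1 with edgeR (0.21, adjusted p = 0.0737), with only the compared groups (adjusted p = 0.0849, limma) and without VAD WT replicates 2 and 4. The cause of the first 3 was not tested. Calls gained were Cdh3 and Cdh11 on the VAS diet, Cdh1, Cdh2 and Ctnna1 between the diets in WT, and Ctnna1 between the diets in Stra6-/- and in the interaction, with their values in the text.

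The number of the 7 genes called was 4, 7, 2 and 6 in the order of the text and 6 for the interaction. Without each library in turn it stayed at 4, 7, 2 and 6, and ranged from 6 to 7 for the interaction, where Ctnna1 passed without VAD WT replicate 4 (adjusted p = 0.0392, limma). With a log2 fold change beyond 1 it was 0, 4 and 1 in the first 3 comparisons. The share of all genes at that cut was not computed, so these counts cannot be set against it. Beyond 2 it was 0, 1, 0 and 2, and 3 for the interaction. Without VAD WT replicates 2 and 4 it was 5 between the diets in WT. A replicate block, although the numbers do not pair the libraries (10 of 60 times a library correlated best with its own number), gave 4, 7, 2, 6 and 6 and changed no call. Without division by length, shares of Cdh1 were 70.8% in VAS WT, 79.6% in VAS Stra6-/- and 17.5% in the libraries labelled VAD Stra6-/-, those of Cdh2 were 8.48% and 5.86% in the first pair, and those of Cdh11 were 9.84%, 5.57% and 33.0% in the same 3 groups. The Cdh3 share in the last of these was then 35.5%.

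In an alternative chosen after seeing the data, the list counts were repeated without VAD WT replicates 2 and 4. Between the diets in WT, called genes then numbered 7 of 14 other cadherins (3 with all libraries), 3 of 7 other catenins (1) and 8 of 19 partners (4). They were 6 of 12 destruction complex genes and regulators (1), 3 of 10 targets (1), 6 of 8 repressors (2) and 2 of 11 epithelial regulators (0). Calls over all genes rose from 8.78% to 37.9%. On the VAS diet, other cadherins then had 2 higher and 3 lower (1 and 1 with all libraries) and other catenins 2 and 2 (2 and 1). Partners had 15 and 2 (11 and 2), and destruction complex genes and regulators 4 and 2 (4 and 1). Repressors had none and 2 (none and 1) and epithelial regulators 8 and none (6 and none). Targets kept their counts. Calls over all 18807 genes rose there from 5010 to 7524. Between the genotypes on the VAD diet, other cadherins then had 7 higher and none lower (4 and 1 with all libraries). Repressors had 4 and 3 (2 and 3), partners 7 and 9 (8 and 8), and targets none and 5 (none and 4). Destruction complex genes and regulators had 2 and 4 (3 and 4), and the remaining lists kept their counts. Calls over all genes there rose from 55.9% to 63.1%.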

Other observations

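The other marker lists also differed between the groups in which the cadherins did. In the libraries labelled VAD Stra6-/- against VAD WT, 5 of 5 tendon markers, 6 of 6 macrophage markers, 5 of 5 melanocyte and pigment markers and 7 of 7 skeletal muscle markers were higher (limma, adjusted p under 0.05), as were 4 of 8 endothelial markers with 1 lower. None of 8 rod photoreceptor markers was higher and 6 were lower, 1 of 8 inner retina markers was higher and 3 lower, 2 of 5 Schwann cell markers were higher and 3 lower, and 1 of 5 lens markers was higher. Without VAD WT replicates 2 and 4, endothelium had 7 higher and 1 lower, rods 2 and 6, inner retina 2 and 3, and lens 1 and 3, with the tendon, macrophage, pigment, muscle and Schwann cell counts as before. The summed value of the tendon markers was 22663 to 24002 in the libraries labelled VAD Stra6-/-. It was 17677 and 18036 in VAD WT replicates 4 and 2, and at most 3266 in the other 13 libraries. Cdh11 and Cdh2 were also highest in these 7, as were the sums of the stroma, endothelium and inner retina markers. The inner retina sum was mostly Glul, which averaged 44141 in the libraries labelled VAD Stra6-/-, where the sum was 44154 to 50475. As given above, more inner retina markers were lower than higher there against VAD WT, with a median log2 fold change of -0.60.

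In VAS Stra6-/- against VAS WT, 7 of 7 skeletal muscle markers were higher and 3 of 5 lens markers were lower, with medians of 1.42 and -2.49 on the log2 scale (7 higher and 4 lower without VAD WT replicates 2 and 4 in the fit). Egfl7, an endothelial marker, was lower there by 1.17, while the endothelial cadherin Cdh5 had 0.38 and did not pass. The part of these tissues in the cadherin and catenin values was not tested.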
